A study of Homo sapiens with 10 samples.

Results

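The 36 genes described here are imprinted genes that lie outside the IGF2 and DLK1 loci. They were taken by symbol from a table of TPM (a level per transcript length, scaled to the same total in every library) that lists 64940 genes, and they belong to 15 imprinted loci. RNA was sequenced from 2 control and 2 oeDAZL libraries, all made from H9, a line of human embryonic stem cells. In oeDAZL cells the RNA-binding protein DAZL, which is specific to germ cells, was overexpressed from a lentivirus, and the labels name these cells human primordial germ cell-like cells (hPGCLCs). The control cells carry the genotype wt. Their labels describe spontaneously differentiated cells, whereas the design text calls them wild-type PGCLCs, and the study's methods treat cells for overexpression with BMP4 and BMP8a and collect them on day 6. For other assays the methods name a control lentivirus with GFP and sorting of the cells, and no source used here says whether these control libraries had either. What DAZL did and what culture, virus or sorting did therefore cannot be told apart here. No source used here says that the replicates came from separate cultures, so the P-values measure the spread between these libraries, which may be technical.

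An imprinted gene is transcribed mainly from the allele of a single parent. The choice is written as DNA methylation at an imprinting control region in the egg or the sperm, and it is kept through the cell divisions of the embryo by zinc-finger proteins that recruit TRIM28 and by the maintenance methyltransferase DNMT1. Primordial germ cells erase these marks, and the marks are then set anew according to the sex of the embryo. Several imprinted genes act on growth, on the placenta and on the brain, and loss of their balance underlies the Prader-Willi, Angelman and Beckwith-Wiedemann syndromes. TPM is a level per transcript length and does not separate the alleles, so the parental allele given for a gene below is background knowledge and was not measured.

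DAZL had 0 and 0.0333 TPM in control libraries but 102 and 101 TPM in oeDAZL libraries, as the labels require. Control replicate 1 stood apart, since the principal component with the most variance (55.5%) placed it at −30.1, control replicate 2 at −7.97 and both oeDAZL libraries at 22.4 and 15.7. Markers that define primordial germ cells were low in both groups, with NANOS3 between 0.732 and 1.66 TPM, SOX17 between 2.52 and 3.35 TPM and PRDM1 between 1.47 and 2.32 TPM. TFAP2C, which trophoblast and amnion share with germ cells, was at 44.3 to 53.9 TPM. Of the 8 listed germ cell markers, 6 were tested and 0 passed an unadjusted P of 0.05, and the summed level was 58.3 to 71.2 TPM. The 9 amnion and trophoblast markers summed to 4217 to 4343 TPM in control and 4425 to 4541 TPM in oeDAZL libraries, with 1 marker higher and 4 lower in oeDAZL at that P, and GABRP was at 1208 to 1408 TPM. Mesoderm and mesenchyme markers summed to 2200 to 2304 TPM in control and 1955 to 1982 TPM in oeDAZL libraries, and 1 of the 9 was higher and 3 lower, among them COL3A1. Neural markers summed to 461 and 593 TPM in control and to 700 and 646 TPM in oeDAZL libraries, with 1 of 8 higher and 3 lower. Endoderm markers summed to 265 TPM in control replicate 1 and to 160 to 204 TPM in the other libraries, with 1 of 6 lower, and the 8 pluripotency markers summed to 629 to 697 TPM, with 2 higher. At that P, 5.02% of all genes tested were higher in oeDAZL and 15.2% lower. The part of these cell types in the values of imprinted genes was not tested, and in bulk RNA a smaller share of cells of a type cannot be told apart from less RNA per cell.

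The summed level of the imprinted genes differed little between control and oeDAZL cells. Together they took 3297 and 3182 TPM in control and 3167 and 3156 TPM in oeDAZL libraries, or 0.316% to 0.330% of all TPM. The 4 most abundant, GNAS, MEST, SNRPN and PEG10, held 81.7% to 83.4% of that sum. A mean TPM of at least 1, the minimum for the test, was reached by 25 members. Another 8 were above 0 but under this minimum, and PEG3, ZIM2 and MIMT1 were listed at 0 in all 4 libraries.

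**Figure D1:**
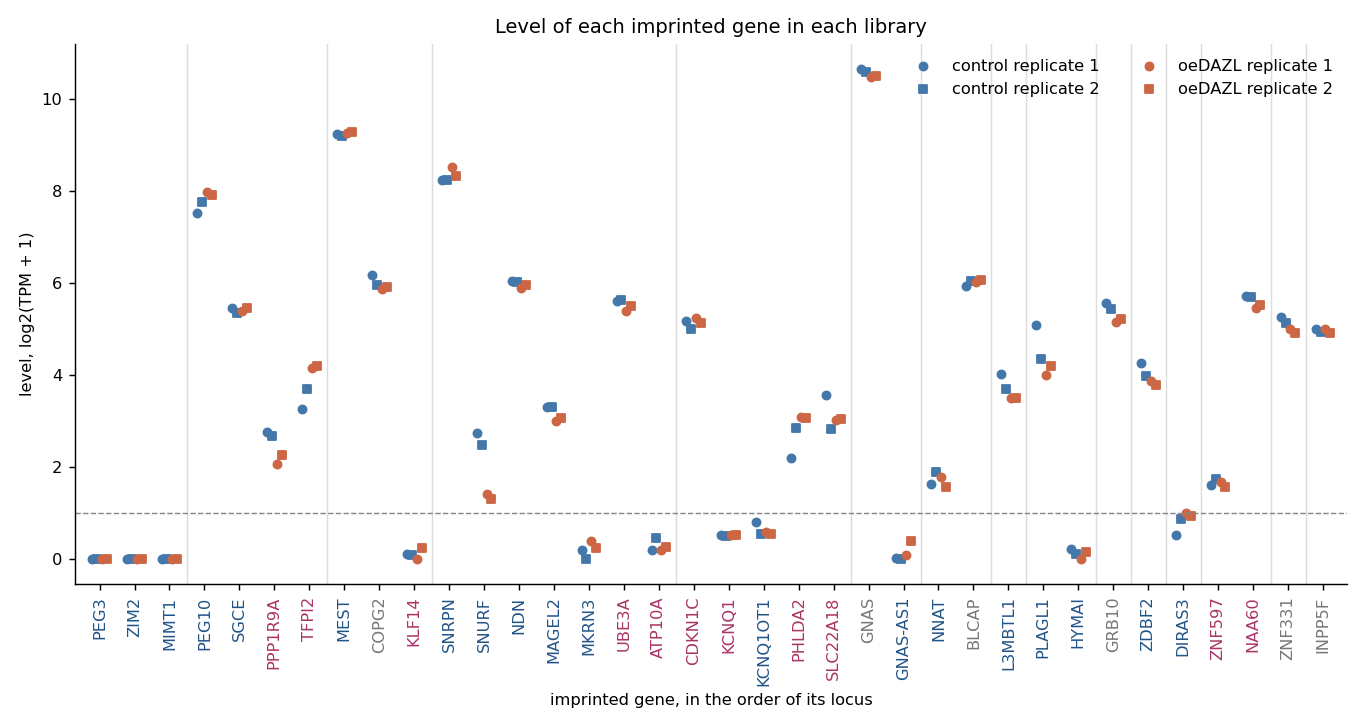
Level of each of the 36 imprinted genes as log2(TPM + 1) in the 2 control (blue) and 2 oeDAZL (orange) libraries, with genes ordered by locus and grey vertical lines between loci. Names are blue where the paternal allele is the expressed one, red where it is the maternal one and grey where it depends on isoform or tissue, and the dashed line marks 1 TPM. GNAS is the highest at 1417 to 1612 TPM, the 3 genes of the PEG3 locus lie at 0, and SNURF and TFPI2 show clear gaps between the groups.

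The comparison of oeDAZL with control cells was fitted with limma on log2(TPM + 1) over 16687 genes. Of the 25 tested members, 2 were higher in oeDAZL at an unadjusted P of at most 0.05, TFPI2 and PEG10, against 5.02% of all genes tested. In the other direction 7 were lower at that P, SNURF, PLAGL1, PPP1R9A, L3MBTL1, GRB10, ZNF331 and NAA60, against 15.2% of all genes. In both directions together 9 members passed this P, against 20.2% of all genes. The study calls a gene at a fold change of at least 2 together with such a P, from DESeq2 on read counts. The same thresholds were set here on limma's P and on the fold of log2(TPM + 1), which understates folds of low genes. By this rule 0 members were called higher, against 0.126% of all genes, and 1 was called lower, SNURF, against 0.563%, or 0.689% in either direction. After Benjamini-Hochberg adjustment over all genes in limma, 0 members had an adjusted p under 0.05, against 0.0599% of all genes, and the smallest was 0.0896.

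By direction alone, 8 members were higher and 17 lower, which makes 68.0% lower beside 65.3% of all genes tested. Both oeDAZL values exceeded both control values for 5 members and lay under both for 13, where all genes gave 16.0% above and 38.4% below, and the groups overlapped for the other 7. The median log2 fold change of the members was −0.13 and that of all genes was −0.08. The split depended on how the libraries were scaled. With median-of-ratios scaling 5 members were higher and 3 lower at a P of at most 0.05, beside 9.95% and 9.16% of all genes. With quantile normalization 3 were higher and 5 lower, beside 8.40% and 9.07% of all genes. By direction alone, 50.5% and 48.7% of all genes were lower under these scalings. Leaving out single libraries moved both the counts of members and the shares of all genes. Without oeDAZL replicate 1, 1 member was higher and 2 lower at that P (2.14% and 7.35% of all genes), and without oeDAZL replicate 2 there were 3 and 4 (3.16% and 9.64%). Without control replicate 1 there were 2 and 3 (4.67% and 10.3%), and without control replicate 2 there were 3 and 11 (8.04% and 19.7%).

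**Figure D2:**
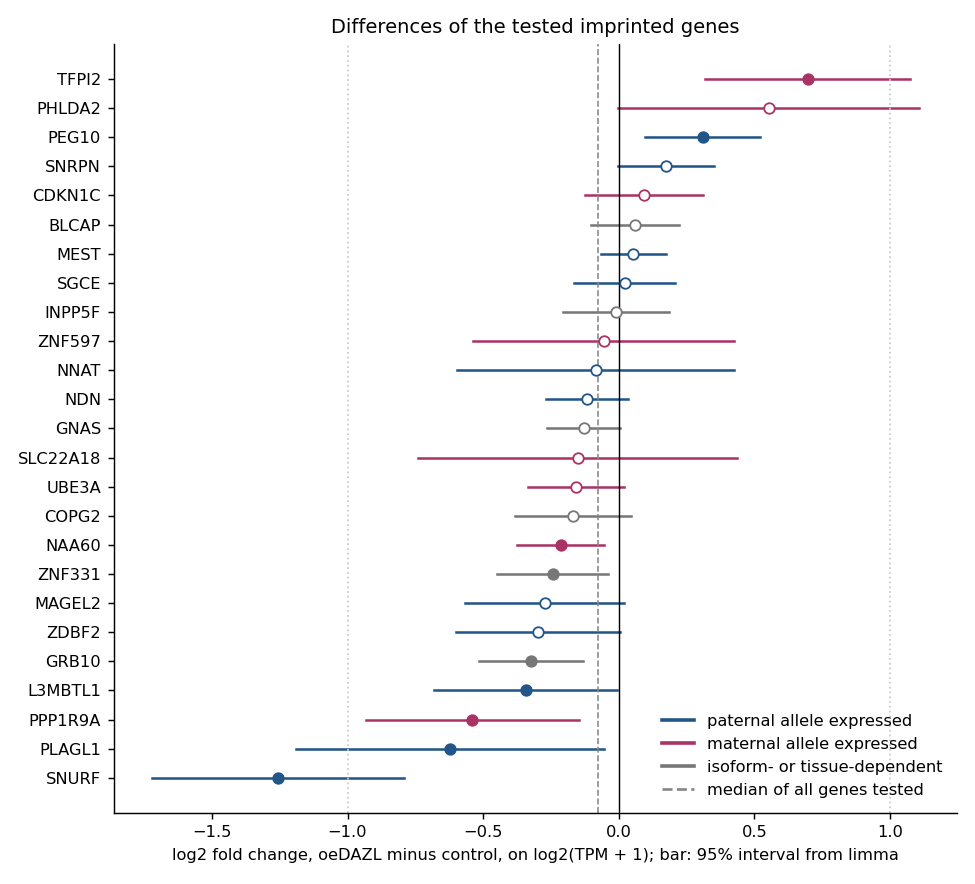
Difference between oeDAZL and control for each of the 25 tested imprinted genes as a log2 fold change on log2(TPM + 1), with bars for the 95% interval from limma and filled points for an unadjusted P of at most 0.05. Dotted lines mark a fold change of 2 and the dashed line marks the median of all genes, −0.08. SNURF alone lies beyond a fold change of 2, at −1.26, and TFPI2 is the highest at 0.70.

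**Figure D3:**
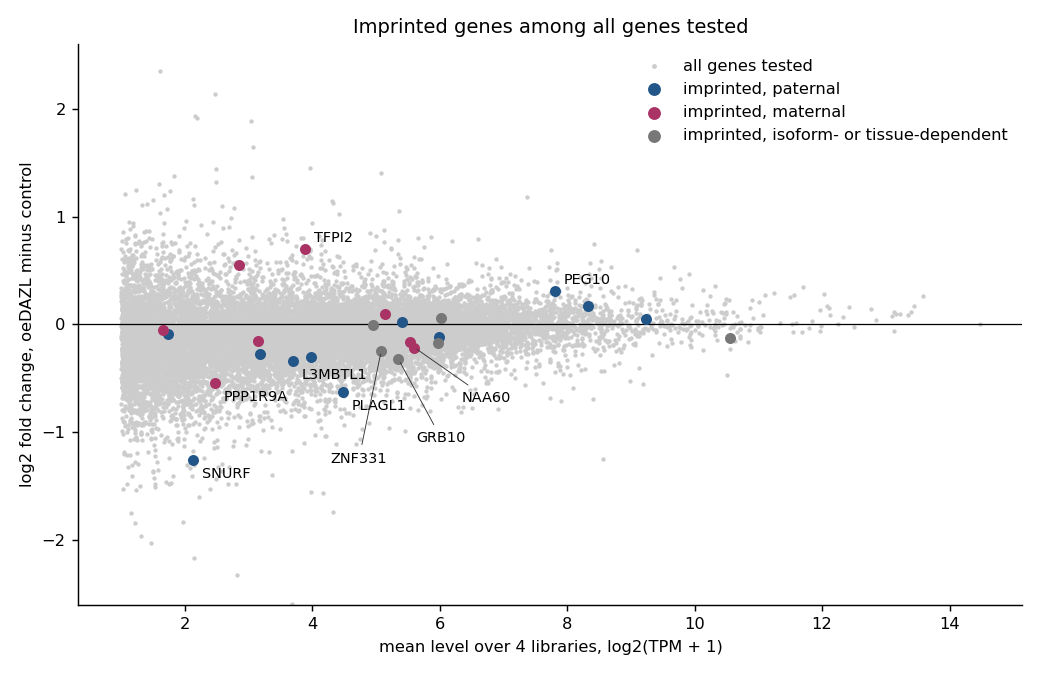
Log2 fold change against mean level for all 16687 genes tested (light grey) and for the imprinted genes (coloured by expressed allele), with the 9 members at an unadjusted P of at most 0.05 named. Each of the 25 tested members lies inside the cloud of all genes or at its edge, and 4 genes, none of them a member, lie beyond the axis limit of 2.6.

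The PEG3 locus on chromosome 19 gave no signal in any library. PEG3 (56810077 to 56840728), a zinc-finger protein expressed from the paternal allele, ZIM2 (56774547 to 56840731), which shares 1264 exonic bases with PEG3, and the non-coding RNA MIMT1 (56840866 to 56848556) were each listed at 0 TPM in both control and both oeDAZL libraries. The zeros reached past these members. Between ZNF71 and ZNF264, the nearest coding genes on either side that were above the test's minimum, lay 565 kb with 18 annotated genes of the table, of which 15 were listed at 0. Of the 7 protein-coding genes among them, 6 were at 0, namely ZNF835, ZIM2, PEG3, USP29, ZIM3 and DUXA, and SMIM17 reached at most 1.06 TPM. ZNF71 was at 8.03 and 8.62 TPM in control and at 10.1 and 7.69 TPM in oeDAZL libraries, and ZNF264 was at 6.22 and 6.34 TPM in control and at 6.77 and 6.30 TPM in oeDAZL libraries. The groups overlapped at both flanking genes. Of 19869 protein-coding genes, 12.7% were at 0 in every library. The 18 genes include non-coding genes and pseudogenes, and of all 64940 genes of the table only 33251 were above 0 in any library. The values give no read depth, so a level of 0 means only that none was listed.

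**Figure D4:**
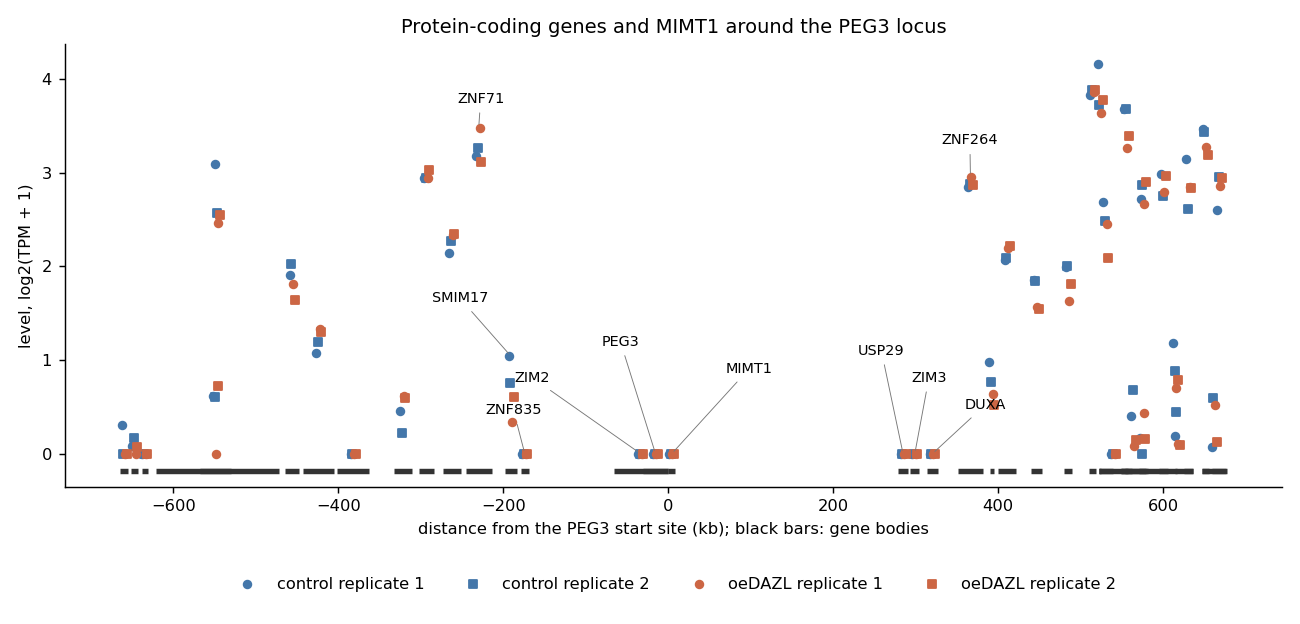
Level as log2(TPM + 1) of the protein-coding genes and MIMT1 around the start site of PEG3, by distance in kb, in the 2 control and 2 oeDAZL libraries, with black bars for gene bodies. PEG3, ZIM2, MIMT1, USP29, ZIM3, DUXA and ZNF835 lie at 0 in all 4 libraries, between ZNF71, which ends 214 kb to the left, and ZNF264, which begins 351 kb to the right.

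The neighbouring imprinted genes on the long arm of chromosome 7 did not move together. TFPI2 (93885396 to 93890753) encodes a Kunitz-type inhibitor of serine proteases and is expressed from the maternal allele in placenta. It was at 8.64 and 11.9 TPM in control and at 16.8 and 17.4 TPM in oeDAZL libraries. Both oeDAZL libraries were above both controls and differed little from each other. Its log2 fold change of 0.70 (SE 0.16, 95% interval 0.32 to 1.07) had an unadjusted P of 0.00398 and an adjusted p of 0.111 in limma, and it was the highest among the members. PEG10 (94656325 to 94669695), a gene derived from a retrotransposon and needed for the placenta, is expressed from the paternal allele. PEG10 was at 182 and 216 TPM in control and at 251 and 241 TPM in oeDAZL libraries. The groups did not overlap, and the log2 fold change was 0.31 (SE 0.09, 95% interval 0.10 to 0.52), with an unadjusted P of 0.0118 and an adjusted p of 0.154 in limma. Without oeDAZL replicate 1 the log2 fold change of PEG10 was 0.28 and no longer passed an unadjusted P of 0.05, nor did it in limma without trend, and it was 0.19 without control replicate 1.

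PPP1R9A (94907202 to 95296415), the actin-binding protein neurabin, is expressed from the maternal allele and lay on the other side of 0. It was at 5.75 and 5.37 TPM in control and at 3.21 and 3.83 TPM in oeDAZL libraries. Both oeDAZL libraries were below both controls, and the log2 fold change was −0.54 (SE 0.16, 95% interval −0.93 to −0.15), with an unadjusted P of 0.0148 and an adjusted p of 0.164 in limma. It was −0.50 without control replicate 1 and −0.44 without oeDAZL replicate 1, neither of which passed an unadjusted P of 0.05. SGCE (94524204 to 94656572), the epsilon-sarcoglycan of muscle and brain membranes, starts next to PEG10 on the opposite strand and shares 219 exonic bases with it. SGCE was at 42.9 and 39.6 TPM in control and at 40.9 and 42.9 TPM in oeDAZL libraries, so the groups overlapped, with a log2 fold change of 0.02 (95% interval −0.16 to 0.21).

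The windows around the start sites of TFPI2 and PPP1R9A are shown because these maternally expressed genes of the same chromosome arm differed in opposite directions. Each runs from 250 bases before to 50 bases after a RefSeq start (GRCh38.p14), 5′ to 3′ on the gene's strand, and capitals would mark the hexamer TGCCGC, or GCGGCA on the other strand, which the imprint-keeping protein ZFP57 binds when its CpG is methylated. TFPI2 at chr7:93890704-93891003 on the reverse strand holds 26 CpG and 0 such hexamers, and PPP1R9A at chr7:94907344-94907643 on the forward strand holds 15 CpG and 0.
TFPI2: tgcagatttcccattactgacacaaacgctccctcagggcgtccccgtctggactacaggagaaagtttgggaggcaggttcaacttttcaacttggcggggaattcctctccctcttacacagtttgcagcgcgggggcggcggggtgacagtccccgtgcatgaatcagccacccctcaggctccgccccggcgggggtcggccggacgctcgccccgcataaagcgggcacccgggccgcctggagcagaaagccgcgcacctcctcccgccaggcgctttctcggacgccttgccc
PPP1R9A: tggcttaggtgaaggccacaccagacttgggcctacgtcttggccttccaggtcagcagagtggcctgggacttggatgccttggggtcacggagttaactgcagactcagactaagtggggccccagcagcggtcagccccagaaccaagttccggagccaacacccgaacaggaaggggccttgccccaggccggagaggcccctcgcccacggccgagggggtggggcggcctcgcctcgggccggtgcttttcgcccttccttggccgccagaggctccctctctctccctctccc

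The Prader-Willi and Angelman locus on chromosome 15 held the only called member. SNURF (24954987 to 24977850) encodes a small protein from an open reading frame upstream of SNRPN, and both lie on transcripts of the paternal allele that begin at the imprinting centre. SNURF was at 5.74 and 4.60 TPM in control and at 1.67 and 1.47 TPM in oeDAZL libraries. Both oeDAZL libraries lay well below both controls, with means of 5.17 ± 0.807 and 1.57 ± 0.143 TPM (SD, n = 2). SNURF fell by 1.26 on log2(TPM + 1) (SE 0.19, 95% interval −1.72 to −0.79), with an unadjusted P of 0.000528 and an adjusted p of 0.0896 in limma. This scale understates the fold of SNURF, whose ratio of mean TPM, oeDAZL over control, was 0.304. With a pseudocount of 0.1 the log2 fold change of SNURF was −1.65. With each library left out in turn its log2 fold change stayed between −1.39 and −1.12.

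SNRPN, on the same transcripts, was higher in direction. SNRPN (24823637 to 24978723), which encodes the splicing protein SmN, was at 301 and 301 TPM in control and at 363 and 318 TPM in oeDAZL libraries. Both oeDAZL libraries were above both controls, with oeDAZL replicate 1 the highest, and the log2 fold change of 0.17 (SE 0.07) had an unadjusted P of 0.0545 in limma. It was 0.08 without oeDAZL replicate 1, and it passed an unadjusted P of 0.05 without oeDAZL replicate 2 (0.27), with median-of-ratios scaling (0.26), without mitochondrial genes (0.19) and with crossed replicate numbers as a block. SNURF made up 1.87% and 1.5% of the sum of both genes in control and 0.458% and 0.461% in oeDAZL libraries, while the sum was 307 and 306 TPM in control and 365 and 319 TPM in oeDAZL libraries. In GENCODE 44, SNURF shares 813 of its 1560 exonic bases (52.1%) with SNRPN on the same strand. The level of SNURF thus rests on how the authors' software divided shared reads between the overlapping genes, and the part of this division in the fall was not tested. SNHG14, the long RNA further downstream that hosts clusters of small nucleolar RNAs, was at 142 and 146 TPM in control and at 153 and 151 TPM in oeDAZL libraries, with a log2 fold change of 0.08 (unadjusted P = 0.191 in limma).

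The start window of SNURF is shown because SNURF is the called member and this is also a start of SNRPN, which was higher in direction. It lies at chr15:24954737-24955036 on the forward strand (GRCh38.p14, RefSeq) and holds 18 CpG, with the hexamer TGCCGC once on each strand, in capitals.
SNURF: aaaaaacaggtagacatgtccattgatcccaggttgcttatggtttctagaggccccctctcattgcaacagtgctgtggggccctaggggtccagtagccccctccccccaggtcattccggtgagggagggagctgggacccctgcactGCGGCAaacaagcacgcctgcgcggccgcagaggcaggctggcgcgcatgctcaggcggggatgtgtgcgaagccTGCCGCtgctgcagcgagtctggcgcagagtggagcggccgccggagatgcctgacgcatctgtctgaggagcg

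The other 3 tested genes of this locus were lower in direction, none at an unadjusted P of 0.05. NDN, which encodes the growth suppressor necdin, was at 65.1 and 64.4 TPM in control and at 58.5 and 60.6 TPM in oeDAZL libraries, with a log2 fold change of −0.12 (95% interval −0.27 to 0.03). MAGEL2, a regulator of ubiquitin ligases, had 8.93 TPM in each control library, against 7.02 and 7.41 TPM in oeDAZL libraries (log2 fold change −0.27, unadjusted P = 0.0619 in limma, under 0.05 without limma's trend or without the filter on TPM). UBE3A, the ubiquitin ligase lost in Angelman syndrome, is expressed from the maternal allele in neurons only. UBE3A was at 47.4 and 48.4 TPM in control and at 41.1 and 44.6 TPM in oeDAZL libraries, with a log2 fold change of −0.16 (95% interval −0.34 to 0.02). For each of these genes both oeDAZL libraries were below both controls. UBE3A overlaps 1822 exonic bases of SNHG14 on the opposite strand, and no source used here says whether the libraries kept the strand. MKRN3 and ATP10A were under the minimum. MKRN3 was at 0.158 and 0 TPM in control and at 0.314 and 0.192 TPM in oeDAZL libraries, with both oeDAZL libraries above both controls, and ATP10A was at 0.143 to 0.376 TPM, with overlapping groups.

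MEST on chromosome 7 (130486171 to 130506465), a hydrolase-like protein of the mesoderm expressed from the paternal allele, was at 598 and 583 TPM in control and at 608 and 617 TPM in oeDAZL libraries. Its level was the second highest of the members, and its log2 fold change was 0.05 (SE 0.05, 95% interval −0.07 to 0.17, unadjusted P = 0.322 in limma). With median-of-ratios scaling this became 0.14 and passed an unadjusted P of 0.05. COPG2, a coat protein of Golgi vesicles that ends against MEST and shares 228 exonic bases with it on the opposite strand, was at 70.8 and 60.7 TPM in control and at 57.0 and 59.4 TPM in oeDAZL libraries, with a log2 fold change of −0.17 (95% interval −0.38 to 0.05). It was −0.06 without control replicate 1 and −0.28, past an unadjusted P of 0.05, without control replicate 2. KLF14, a transcription factor of the same locus, was at 0 to 0.191 TPM.

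At the KCNQ1OT1 locus on chromosome 11, the long RNA KCNQ1OT1 silences its neighbours on the paternal allele. KCNQ1OT1 itself was at 0.463 to 0.747 TPM and the potassium channel gene KCNQ1 at 0.412 to 0.441 TPM, both under the minimum. CDKN1C, an inhibitor of cyclin-dependent kinases that is expressed from the maternal allele, was at 35.2 and 31.1 TPM in control and at 36.5 and 34.3 TPM in oeDAZL libraries. The groups overlapped, and the log2 fold change was 0.09 (SE 0.09, 95% interval −0.12 to 0.31, unadjusted P = 0.335 in limma). It was 0.18 without control replicate 1, 0.0062 without control replicate 2 and 0.049 without oeDAZL replicate 1. PHLDA2, which restrains the growth of the placenta, was at 3.59 and 6.20 TPM in control and at 7.51 and 7.35 TPM in oeDAZL libraries. Both oeDAZL libraries were above both controls, with control replicate 1 the lowest, and the log2 fold change of 0.55 had an unadjusted P of 0.0508 in limma. It was 0.23 without control replicate 1 and 0.88 without control replicate 2, of which the latter passed an unadjusted P of 0.05. PHLDA2 also passed it with median-of-ratios scaling (0.62), quantile normalization (0.70) and the replicate number as a block, straight or crossed. SLC22A18, a membrane transporter, was at 6.09 to 10.8 TPM in control and 7.18 to 7.28 TPM in oeDAZL libraries, with control replicate 1 the highest. Its log2 fold change of −0.15 was 0.22 without that library and −0.52, past an unadjusted P of 0.05, without control replicate 2.

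GNAS on chromosome 20 (58839718 to 58911192), which encodes the stimulatory G-protein alpha subunit, was the most abundant member. GNAS was at 1612 and 1519 TPM in control and at 1417 and 1442 TPM in oeDAZL libraries. Both oeDAZL libraries were below both controls, and the log2 fold change was −0.13 (SE 0.06, 95% interval −0.27 to 0.01, unadjusted P = 0.0574 in limma). It passed an unadjusted P of 0.05 with quantile normalization and without control replicate 2. It ranked number 66 by mean TPM among the genes tested and made up 44.8% to 48.9% of the members' TPM, so without it the sum of the other members was 1685 and 1663 TPM in control and 1749 and 1714 TPM in oeDAZL libraries. The order of the groups was thus turned when this gene was left out. Its protein is made from both alleles in most tissues and from the maternal allele in some, and its other transcripts start on a single parental allele, which the gene level does not resolve. The paternally expressed GNAS-AS1, which has 1127 exonic bases opposite GNAS, was at 0 to 0.315 TPM. On the same chromosome, NNAT, a membrane proteolipid of neurons that lies within BLCAP, was at 1.99 to 2.73 TPM, with overlapping groups. BLCAP, a gene first found in bladder cancer, was at 60.4 and 64.7 TPM in control and at 64.1 and 66.2 TPM in oeDAZL libraries, with a log2 fold change of 0.06 (95% interval −0.10 to 0.22).

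PLAGL1 on chromosome 6 (143940300 to 144064599), a zinc-finger transcription factor that halts the cell cycle and is overexpressed in transient neonatal diabetes, was at 33.1 and 19.4 TPM in control and at 15.1 and 17.2 TPM in oeDAZL libraries. Control replicate 1 stood far above the rest, and the log2 fold change of −0.62 (SE 0.23, 95% interval −1.19 to −0.06, unadjusted P = 0.0362, adjusted p = 0.218 in limma) was −0.25 without that library and −0.99 without control replicate 2. It no longer passed an unadjusted P of 0.05 without control replicate 1, without oeDAZL replicate 1, in limma without trend, without the filter on TPM, or with median-of-ratios or quantile scaling. HYMAI, the non-coding RNA that starts inside PLAGL1, was at 0.00103 to 0.173 TPM.

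GRB10 on chromosome 7 (50590063 to 50793462) encodes an adaptor that dampens insulin receptor signalling, and its expressed allele depends on the tissue. It was at 46.4 and 42.4 TPM in control and at 34.4 and 36.1 TPM in oeDAZL libraries. The groups did not overlap, and the log2 fold change was −0.32 (SE 0.08, 95% interval −0.52 to −0.13), with an unadjusted P of 0.00598 and an adjusted p of 0.122 in limma. With each library left out in turn it was between −0.39 and −0.26 and passed an unadjusted P of 0.05 each time.

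The start window that HYMAI shares with PLAGL1 is shown because it is the differentially methylated promoter of the locus. It lies at chr6:144008210-144008509 on the reverse strand (GRCh38.p14, RefSeq) and holds 39 CpG and, in capitals, TGCCGC followed by GCGGCA, the same hexamer read from the other strand.
HYMAI: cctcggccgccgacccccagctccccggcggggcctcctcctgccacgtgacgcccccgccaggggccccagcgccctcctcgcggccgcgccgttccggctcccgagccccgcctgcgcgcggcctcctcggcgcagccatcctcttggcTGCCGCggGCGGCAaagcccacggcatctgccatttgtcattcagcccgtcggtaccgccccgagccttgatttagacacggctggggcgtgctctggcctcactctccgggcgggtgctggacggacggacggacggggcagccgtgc

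The loci with a single or a pair of members were mostly lower in direction. NAA60, an acetyltransferase of the Golgi, was at 51.3 and 51.0 TPM in control and at 43.0 and 44.9 TPM in oeDAZL libraries (log2 fold change −0.21, SE 0.07, unadjusted P = 0.0172, adjusted p = 0.171 in limma). ZNF331, a zinc-finger protein, was at 37.3 and 34.1 TPM in control and at 30.9 and 29.0 TPM in oeDAZL libraries (log2 fold change −0.24, SE 0.08, unadjusted P = 0.0256, adjusted p = 0.195 in limma). L3MBTL1, a chromatin-compacting protein expressed from the paternal allele, was at 15.2 and 11.9 TPM in control and at 10.4 TPM in both oeDAZL libraries (log2 fold change −0.34, SE 0.14, unadjusted P = 0.0469, adjusted p = 0.241 in limma). In each of these genes the groups did not overlap. None of them passed an unadjusted P of 0.05 in limma without trend or with median-of-ratios scaling. ZNF331 and L3MBTL1 also did not pass it with quantile normalization. L3MBTL1 further failed to pass it without the filter on TPM, with the replicate block and without mitochondrial genes. The P of NAA60 passed 0.05 only with both oeDAZL libraries in the fit. That of ZNF331 passed it with control replicate 2 left out and with no other library left out, and so did that of L3MBTL1, whose log2 fold change was −0.18 without control replicate 1 and −0.51 without control replicate 2. ZDBF2, a zinc-finger protein of the paternal allele, was at 14.8 to 18.1 TPM in control and 12.7 to 13.6 TPM in oeDAZL libraries (log2 fold change −0.30, unadjusted P = 0.0529 in limma). Its log2 fold change was −0.16 without control replicate 1 and −0.43, past an unadjusted P of 0.05, without control replicate 2. INPP5F, a phosphoinositide phosphatase, was at 30.9 and 29.4 TPM in control and at 30.9 and 28.9 TPM in oeDAZL libraries, so the groups overlapped. The zinc-finger gene ZNF597 was at 1.97 to 2.37 TPM, also with overlapping groups, and the Ras-like tumour suppressor DIRAS3 was under the minimum at 0.435 to 1.02 TPM.

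**Figure D5:**
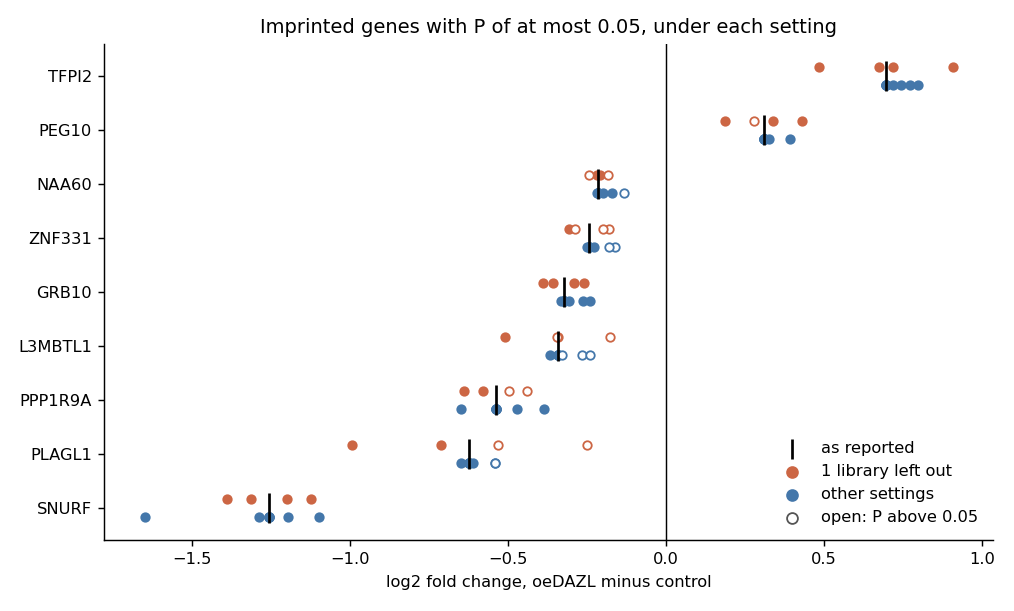
Log2 fold change of the 9 imprinted genes at an unadjusted P of at most 0.05 under each setting, with black ticks for the reported value, orange points for fits with 1 library left out and blue points for other settings. Open points mark a P above 0.05. TFPI2, GRB10 and SNURF are filled throughout, and PLAGL1 spreads from −0.99 to −0.25.

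Both directions occurred in each parental class, as they did among all genes tested, of which 65.3% were lower in direction. At an unadjusted P of at most 0.05, 5.02% of all genes were higher and 15.2% lower, and the median log2 fold change of all genes was −0.08. Of the 19 paternally expressed members 11 were tested, of which 4 were higher and 7 lower, 1 and 3 of them at an unadjusted P of 0.05, with a median log2 fold change of −0.12. The 11 maternally expressed members had 8 tested, of which 3 were higher and 5 lower, 1 and 2 of them at that P, with a median of −0.10. This class counts UBE3A, although its imprint is known from neurons, and TFPI2, whose maternal expression is given above for placenta. Without UBE3A, a choice made after its values were seen, the class had 3 higher and 4 lower and a median of −0.06. Its sum was then 118 and 115 TPM in control and 117 and 118 TPM in oeDAZL libraries. The class was not recounted without TFPI2, its only member higher at that P. The 6 genes whose expressed allele depends on isoform or tissue were all tested, with 1 higher, 5 lower and a median of −0.15. Summed levels were 1273 and 1268 TPM in control and 1374 and 1332 TPM in oeDAZL libraries for the paternal class, and, with UBE3A, 166 and 163 TPM in control and 158 and 162 TPM in oeDAZL libraries for the maternal class. By locus, the 5 tested genes of the Prader-Willi and Angelman locus had a median of −0.16 and the 4 of the PEG10 and SGCE locus a median of 0.17.

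Proteins that act on the methylation of imprints, TET1 and TET2 that oxidise it among them, formed a list of 13 genes. ZFP57, which guards imprints, was at 0 to 0.0193 TPM, and ZNF445, which serves the same purpose in human cells, was at 11.4 and 9.45 TPM in control and at 8.11 and 8.96 TPM in oeDAZL libraries. Of the 13 genes 12 were tested, with 3 higher and 9 lower in direction and a median log2 fold change of −0.07, and 1 passed an unadjusted P of 0.05. Among all genes tested 65.3% were lower, 20.2% passed that P in either direction, and the median was −0.08. The 3 higher were SMCHD1, ARID4A and ARID4B, and for ARID4B both oeDAZL libraries were above both controls. TRIM28, the corepressor that both zinc-finger proteins recruit, was at 480 and 444 TPM in control and at 404 and 416 TPM in oeDAZL libraries, with a log2 fold change of −0.17 (SE 0.06, unadjusted P = 0.0255, adjusted p = 0.195 in limma). DNMT1 had 122 TPM in each control library, against 113 and 112 TPM in oeDAZL libraries (unadjusted P = 0.0764 in limma). Among 16 other genes of the members' loci 8 were tested, with 3 higher and 5 lower in direction and a median of −0.04, and 1 passed that P, OSBPL5, a lipid transfer protein of the KCNQ1OT1 locus, at 34.9 and 31.9 TPM in control and 28.0 and 28.9 TPM in oeDAZL libraries (log2 fold change −0.22, SE 0.08, unadjusted P = 0.0326, adjusted p = 0.211 in limma). The imprinted loci set aside here had 7 listed genes, of which 4 were tested, with 2 higher, 2 lower and a median of −0.04. Of these, 2 had an adjusted p under 0.05 in limma, against 0.0599% of all genes tested. The fetal growth factor IGF2 was at 118 and 110 TPM in control and at 67.0 and 65.1 TPM in oeDAZL libraries. Its log2 fold change was −0.78 (adjusted p = 0.0390 in limma). DIO3, which inactivates thyroid hormone, was at 25.2 and 26.1 TPM in control and at 55.5 and 52.9 TPM in oeDAZL libraries. The log2 fold change of DIO3 was 1.05 (adjusted p = 0.0303 in limma). H19 was lower in direction (−0.15, unadjusted P = 0.0535 in limma), and at DLK1 (0.08) the groups overlapped. RTL1, MEG3 and MEG8 were under the minimum.

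RefSeq start windows were found for 24 of the 36 members. They were not found for PEG3, ZIM2, MIMT1, PEG10, SGCE, CDKN1C, KCNQ1, KCNQ1OT1, PHLDA2, SLC22A18, GNAS-AS1 and NNAT. The 24 members have 55 windows of 300 bases, of which 18 (32.7%) hold TGCCGC on either strand, against 16.7% of the 34943 windows of all genes. The median number of CpG was 21 in the members' windows and 14 in all windows. GNAS, MEST, SNRPN, SNURF, PLAGL1, HYMAI and KLF14 are among the members with the hexamer. SNURF shares its window with SNRPN, and HYMAI shares its window with PLAGL1. Levels of members with the hexamer ranged from 1612 TPM for GNAS in control replicate 1 to 0 TPM for KLF14 in oeDAZL replicate 1. These levels are per gene and cannot be assigned to a start. For GNAS, the window at 58839498 to 58839797 holds the hexamer once, and the one at 58888930 to 58889229 holds 0. A match describes the letters of a window and is not evidence of binding.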

How the data were processed

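Gene expression was measured by RNA sequencing in 2 control and 2 oeDAZL libraries; the 6 miRNA libraries (shLacZ and shDAZL) were not analysed here. According to the study's methods and the submitters' processing notes, reads were trimmed with Trim Galore (the sources give different versions), mapped to hg38 with HISAT2 2.1.0, restricted to uniquely mapped reads and quantified with StringTie 2.1.4. The annotation release is not given in the sources used here. The authors deposited TPM per gene, without pooling of replicates. TPM keeps no read depth, so depth is unknown and precision was taken from the spread between replicates.

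Of 65003 entries, 45 pseudoautosomal copies and 18 repeats were left out. The 36 members have 41 entries, and the 5 extra ones, on alternate contigs, were at 0 in every library. Genes averaging at least 1 TPM over the 4 libraries were fitted as log2(TPM + 1) with limma 3.58.1 in R 4.3.3 (lmFit, eBayes with trend, no covariates), and p-values were adjusted by Benjamini-Hochberg over all 16687 genes. On this scale, fold changes of low genes are understated. An exact permutation test of 2 against 2 libraries cannot give a p under 0.333. Positions and overlaps are from GENCODE 44, in which 90.0% of the genes were found. Values by library were given for members at an unadjusted P of at most 0.05 or a mean of at least 20 TPM, and other members were given by range or as examples. The lists hold 13 genes that keep, read or remove the methylation of imprints, 21 neighbours of the members (16 found by name) and marker genes of cell types. Members and lists were chosen with earlier results of these data known. The procedure was tested on simulated data. The alternatives were a pseudocount of 0.1, no filter, a mean of at least 5 TPM, median-of-ratios scaling, quantile normalization, TPM rescaled without mitochondrial genes, limma without trend, the replicate number as a block, and each library left out in turn.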

Additional observations from a re-analysis of the deposited data

How the results depend on the processing

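The count of members at an unadjusted P of at most 0.05, 2 higher and 7 lower, was 1 and 4 in limma without trend (3.39% and 13.9% of all genes) and 5 and 3 with median-of-ratios scaling (9.95% and 9.16%). When libraries were left out singly, 1 to 3 were higher and 2 to 11 lower, and the count of called members was 0 higher and 1 lower each time. The lone library of a group is then assumed to vary like the other group. The called member was SNURF each time, while the number called among all genes tested differed from fit to fit. SNURF was under the filter at a mean of at least 5 TPM, which left 0 members called. With this filter 6 genes were called higher and 23 lower among all 11933 tested. The study's fold change with an adjusted p under 0.05 in limma also left 0 members called. Without regard to fold change, 10 of all 16687 genes had such an adjusted p. Over the alternatives with all 4 libraries, crossed replicate numbers apart, the smallest adjusted p of a member in limma was between 0.0909 and 0.322. The block with crossed numbers, chosen after seeing the data, gave 0.0170. In that fit 1089 of all 16687 genes had an adjusted p under 0.05 in limma, against 10 in the reported fit. The median log2 fold change of the members was negative under every alternative run, between −0.15 and −0.05, with −0.05 under median-of-ratios scaling, where the median of all genes was −0.0026.

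The replicate numbers do not pair the samples by any label, and deviations of libraries with the same number had a correlation of −0.10. With the replicate block 3 members were higher and 6 lower at that P (4.02% and 12.6% of all genes). There 0 members were called higher and 1 lower, beside 26 called higher and 99 called lower among all 16687 genes tested. With the numbers crossed, an alternative chosen after seeing the data, 4 were higher and 9 lower (6.35% and 17.7%).

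Members near 0 changed sign. NNAT was at 0.093 with quantile normalization and, in the fits that omit a library, between −0.22 and 0.046. ZNF597 was at 0.00056 with median-of-ratios scaling, at 0.12 with quantile normalization and between −0.13 and 0.012 in those fits. INPP5F was at 0.072 with median-of-ratios scaling, at 0.053 with quantile normalization, at 0.0072 without mitochondrial genes and between −0.056 and 0.037 in those fits. In those fits SGCE was between −0.036 and 0.080, and SLC22A18 between −0.52 and 0.22. TFPI2 and GRB10 passed an unadjusted P of 0.05 under every alternative run, as did SNURF wherever it was tested. The cause of these changes was not tested. Read depth is not known, so no limit of detection can be given for the members listed at 0.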
